A study of Arabidopsis thaliana with 3 samples.

Results

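Between the genes of the Arabidopsis chromosome arms, 231 regions carried a FHY3 peak in both ChIP replicates. They are 26.2% of the 882 nuclear regions shared by the 2 peak lists. A region was the union of peaks that overlapped by at least 1 bp between the lists. It was counted here when its midpoint lay outside every protein-coding gene and outside a block around each centromere. The blocks were 13 to 17 Mb on chromosome 1, 2 to 6 Mb on chromosome 2, 11.5 to 15.5 Mb on chromosome 3, 1.5 to 5.5 Mb on chromosome 4 and 10 to 14 Mb on chromosome 5. By distance from the midpoint to the nearest protein-coding gene, 138 regions lay within 1 kb and 93 lay farther away. Another 359 shared regions of the arms had their midpoint inside a gene, and 292 lay in the left-out blocks.

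Both ChIP samples and the single input sample came from inflorescences with flowers up to stage 8 of plants grown in 16 h of light and 8 h of dark. All plants were fhy3-4 mutants carrying 35S:3FLAG-FHY3-3HA, so the tagged protein was made from the 35S promoter, a viral promoter active in most plant tissues, and not from that of FHY3. Anti-FLAG antibody precipitated the chromatin of ChIP replicates 1 and 2, and the input had no antibody. Nothing was compared between conditions, and the input gave no values used here. The lists hold no expression, so the tissue could not be checked against marker genes.

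FHY3 is a DNA-binding protein derived from a transposase of the Mutator type. With its partner FAR1 it was first known from phytochrome A signalling in far-red light, and later from the circadian clock, chlorophyll synthesis, abscisic acid responses and flower development. In plants, the sequence between genes holds promoters and distal control elements, and also transposon remnants, pseudogenes and repeats. Which strand a gene lies on was not known here, so a gene is described as beside a peak and never as downstream of it.

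Each peak has a score given by the authors. Its scale is not stated, it ran from 23.03 to a ceiling of 3100, and it was used to rank and describe peaks within a list. The 231 regions were made of 239 peaks of replicate 1 (16.2% of its 1475 nuclear peaks) and 233 peaks of replicate 2 (17.2% of 1354). In 223 regions each list had a single peak. Depth is unknown, scores come without an error, and with a single ChIP group no test over samples was possible. Intervals below are 95% intervals, Wilson for shares and exact Poisson for densities. They cover counting error of peaks only and count neighbouring peaks as independent.

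Per base, FHY3 peaks between genes were about as frequent as peaks inside genes. The arms held 6.15 shared peaks per Mb of sequence within 1 kb of a gene (interval 5.17 to 7.27), 6.33 per Mb farther away (5.11 to 7.75) and 5.79 per Mb inside genes (5.21 to 6.42). These intervals overlap, which does not show that the densities are equal. Peaks that scored at least 100 in both lists gave 3.12, 3.13 and 3.18 per Mb, with intervals of 2.43 to 3.94, 2.29 to 4.18 and 2.75 to 3.65. The sequence available was 22.4 Mb within 1 kb, 14.7 Mb farther away and 62.0 Mb inside genes.

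In finer steps of distance, the density was 5.03 peaks per Mb from 1 to 250 bp (interval 3.65 to 6.75) and 8.50 from 251 to 500 bp (6.33 to 11.2). It was 5.59 from 501 to 1000 bp (4.05 to 7.53), 6.52 from 1001 to 2000 bp (4.82 to 8.62) and 5.39 from 2001 to 5000 bp (3.66 to 7.65). All of these intervals overlap each other. Beyond 5000 bp the density was 9.10 per Mb (4.85 to 15.6), but 8 of the 13 peaks there lay in the first 100 kb of chromosome 2. Without that stretch 5 peaks remained in 1.39 Mb, or 3.59 per Mb (1.16 to 8.37).

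**Figure D1:**
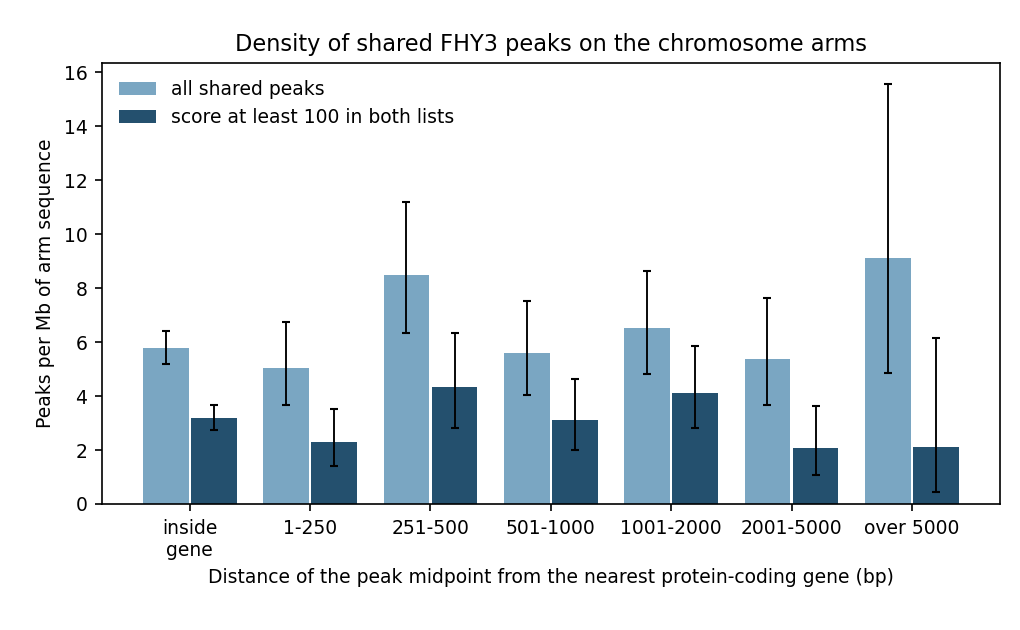
Shared FHY3 peaks per Mb of arm sequence (vertical axis) inside protein-coding genes and at increasing distance in bp from the nearest gene (horizontal axis). Light bars are all shared peaks, dark bars those scoring at least 100 in both lists, and error bars are exact 95% Poisson intervals; the bars stay between 5.03 and 9.10 per Mb for all peaks and between 2.09 and 4.33 for the high-scoring ones.

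Scores were of similar size near genes, far from them and inside them. Median scores in replicates 1 and 2 were 109.5 and 213 within 1 kb of a gene, 101 and 201 farther away, and 117 and 217 inside genes. At least 100 in both lists was reached by 116 of the 231 peaks (50.2%, interval 43.8 to 56.6%), against 39.5% of all 882 shared peaks. That background includes the left-out blocks, and inside arm genes the share was 54.9% (49.7 to 59.9%). The share was 50.7% within 1 kb (42.5 to 58.9%) and 49.5% farther away (39.5 to 59.4%). Without the first 100 kb of chromosome 2, the far medians were 114 and 244 and the share 56.1%. Only 5 of the 231 peaks scored under 30 in both lists, and 22 scored at least 500 in both.

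Peak score and distance from the nearest gene showed next to no relation across the 231 peaks, with Spearman's rho of -0.052 in replicate 1 and -0.061 in replicate 2. Peaks are not independent samples, and all peaks of a list share one library. Without the first 100 kb of chromosome 2 the values were 0.024 and 0.039 over 219 peaks. The 13 peaks more than 5000 bp from a gene had median scores of 54.0 and 48.6, the lowest of any step of distance. Without that stretch the order turned: the 5 left had the highest medians, 301.6 and 367, with scores from 47.1 to 841 and from 67.6 to 773. The 49 peaks at 1001 to 2000 bp had medians of 155 and 264, and the 44 peaks within 250 bp had 83.8 and 154.

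**Figure D2:**
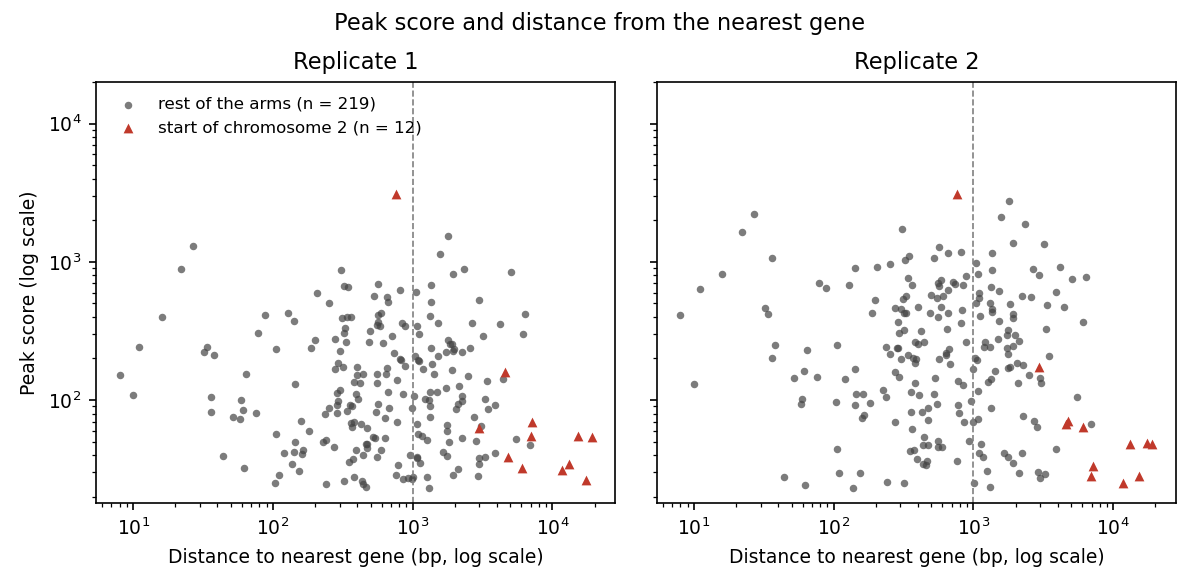
Peak score (vertical axis, log scale) against the distance in bp from the peak midpoint to the nearest protein-coding gene (horizontal axis, log scale) for the 231 peaks, with replicate 1 left and replicate 2 right; the dashed line marks 1 kb. Triangles are the 12 peaks in the first 100 kb of chromosome 2, which supply 8 of the 13 peaks beyond 5000 bp.

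The replicates ranked these peaks alike. Across the 231 peaks Spearman's rho between the replicates' scores was 0.914, with 0.922 within 1 kb, 0.902 farther away and 0.908 for the 359 arm peaks inside genes. These values cover only regions with a peak in both lists. Taken alone, replicate 1 had 328 arm peaks between genes and replicate 2 had 337, so rho leaves out peaks found in 1 list. Replicate 2 scored higher at 198 of 231 peaks (85.7%), against 72.4% of all 882 shared peaks. The share was 89.9% within 1 kb (interval 83.7 to 93.9%), 79.6% farther away (70.3 to 86.5%) and 92.2% inside arm genes. Taken peak by peak, the ratio of the replicate 2 score to the replicate 1 score had a median of 1.79. Inside arm genes the median of this ratio was 1.81, and with the scale of the score unknown it cannot be read as a difference in binding. Midpoints of the replicates' own peaks were 69 bp apart at the median, and 153 of 231 were at most 100 bp apart. Regions were chosen because the replicates' peaks overlap, which keeps midpoints close, so this is a description and no measure of how well the lists match. By the midpoint of each replicate alone, 213 of 231 peaks kept their class, 12 of the 138 within 1 kb fell inside a gene in 1 of the lists, and 5 of the 93 farther peaks came within 1 kb in 1 of the lists.

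**Figure D3:**
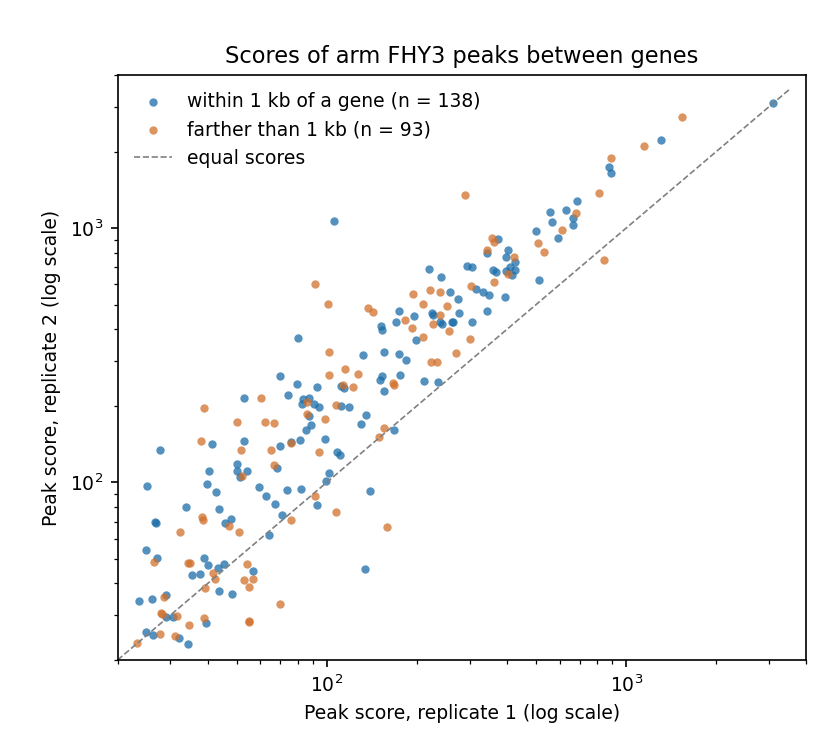
Score in replicate 2 (vertical axis) against replicate 1 (horizontal axis), both on log scales, for the 138 peaks within 1 kb of a gene and the 93 farther away; the dashed line marks equal scores. Points of both classes overlap and 198 of 231 lie above the line. The highest scores in replicates 1 and 2 are 3100 and 3100 within 1 kb, at the ribosomal RNA peak, and 1534 and 2739 farther away.

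A few peaks departed from that ratio. Among the 164 that reached a score of 100 in 1 list or both, the highest ratio was at chr1:27482416-27485812. Its midpoint lay between AT1G73066 and PEPR1, a receptor kinase for defence peptides, and protein-coding genes covered 95.3% of its width. Replicate 2 had 1 peak there with a score of 1065, and replicate 1 had 3 separate peaks with a best score of 106. Next came the peaks beside ZW18 and the amino acid permease gene AAP1 (91.6 in replicate 1 and 601 in replicate 2), AT2G25510 (38.9 and 196), the phospholipase gene PLDGAMMA2 (101 and 503) and AT5G08250 (27.8 and 134). The lowest ratios were at AT1G24807 (134 and 45.6), AT2G01023 (159 and 66.8), AT1G54450 (139 and 92.8), AT2G14460 (107 and 76.2) and AT2G16005 (841 and 749). Of these 10 peaks, 4 belonged to the 138 within 1 kb and 6 to the 93 farther away.

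Most peaks near a gene also reached into it. Median width was 1147.5 bp within 1 kb, 1195 bp farther away and 1150 bp inside genes. Of the 138 peaks within 1 kb, 77 touched 1 protein-coding gene, 25 touched 2 or more and 36 touched none. Over the 138, protein-coding genes covered a median of 21.3% of the peak width, and at most 97.3%. At 57 of the 138, genes stood within 1 kb on both sides, so that the peak cannot be given to 1 gene by distance. None of the 93 farther peaks touched a protein-coding gene. The label of peaks between genes therefore holds for the midpoint of all 231 and for the whole peak of 129.

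The spaces between genes that held a peak were longer than most. Their median length was 2805 bp for the 220 spaces with a peak, against 830 bp for all 22624 spaces of the arms. A longer space offers more bases for a midpoint to fall in. Peaks spread evenly per base would also lie mostly in longer spaces, so this difference shows no preference for them. Per Mb, spaces of up to 1000 bp held 6.54 peaks, those of 1001 to 2000 bp 7.77, those of 2001 to 5000 bp 5.73, those of 5001 to 10000 bp 5.75 and those over 10000 bp 6.05. Without the first 100 kb of chromosome 2, spaces over 10000 bp held 17 peaks in 4.57 Mb, or 3.72 per Mb (interval 2.17 to 5.95). Only 4 spaces held 2 or more peaks, 15 peaks in all, and 11 of these peaks lay at the start of chromosome 2.

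Among peaks within 1 kb, the highest-ranked by the summed rank of both scores overlapped ribosomal RNA genes and is described with the start of chromosome 2. After it came a peak at chr1:4567115-4568702 with scores of 1304 in replicate 1 and 2220 in replicate 2. Its midpoint lay in a space of 85 bp between PP2AA3, a scaffold subunit of protein phosphatase 2A, and AHP2, a gene of meiotic chromosome pairing, at 59 and 27 bp. The peak at chr1:26587627-26589112, with scores of 888 and 1650, had its midpoint in a space of 762 bp between the receptor-like kinase genes CRK2 and CRK3, 22 bp from CRK3. At chr1:27777876-27779481, with scores of 877 and 1738, the midpoint was 306 bp from the B-box gene BBX16 and 1795 bp from AT1G73860. These peaks differ in setting: the midpoint of the first is between genes that nearly meet, while the last has a single gene close by. Protein-coding genes covered 94.6% of the width of the first, 48.7% of the peak beside CRK3 and 31.0% of the last.

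The rest of the 15 highest-ranked peaks within 1 kb scored from 373 to 686 in replicate 1 and from 733 to 1274 in replicate 2. Named transcription factor genes stood beside 3 of them. The peak 657 bp from MYB87 scored 556 and 1161, and the homeobox gene HAT22 on its other side was 7639 bp away. The peak between MYB61 and AT1G09550, 526 bp from AT1G09550 and 1136 bp from MYB61, scored 564 and 1057. SHP2, whose MADS-box protein acts in carpel and ovule identity, was 589 bp from a peak with scores of 427 and 733 that also stood 980 bp from HVA22F.

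The other peaks of this group lay beside genes of varied kinds. PRXCB, a peroxidase gene, was 817 bp from a peak scoring 630 and 1173, with AT3G49115 at 859 bp on its other side. A space of 39 bp between the potassium channel gene KT5 and AT4G32510 held the midpoint of a peak scoring 401 and 818. Protein-coding genes covered 97.0% of the width of that peak. AT5G11480 was 205 bp from a peak that scored 592 and 918 and touched the tRNA gene AT5G11475. The remaining ones lay nearest to AT1G77610 (565 bp, 686 and 1274), AT3G22275 (344 bp, 662 and 1098), AT5G42150 (322 bp, 665 and 1031), AT1G04150 (253 bp, 501 and 970) and AT3G03070 (141 bp, 373 and 902).

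Farther than 1 kb from any gene, the highest-ranked peak was at chr4:15380447-15381530, with scores of 1534 in replicate 1 and 2739 in replicate 2, higher in each list than any peak within 1 kb except the ribosomal RNA peak. It stood 1789 bp from WRKY18, a transcription factor gene of defence responses, and 1963 bp from AT4G31790, and touched neither. The next, at chr5:18900380-18902046, scored 1144 and 2096 between AT5G46580 at 1567 bp and the NAC gene NAC096 at 4045 bp. At chr3:2008911-2010419 a peak with scores of 891 and 1879 stood between MYB108, a transcription factor gene of stamen maturation and of resistance to Botrytis, at 2938 bp, and the invertase gene A/N-InvC at 2328 bp. These 3 peaks touched no protein-coding gene, and their spaces were 3751, 5611 and 5265 bp long.

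Of the other 7 among the 10 highest-ranked far peaks, 3 stood beside a named gene. AIL6, an AINTEGUMENTA-like gene that acts in the start and growth of floral organs, was 2966 bp from a peak at chr5:3311710-3313160 with scores of 533 and 809. That peak touched the miRNA gene MIR8184, and NET2C was 4326 bp away on the other side. RGA1, which encodes a DELLA repressor of gibberellin responses, was 2645 bp from a peak at chr2:259565-260861 with scores of 361 and 881, with AT2G01580 at 4809 bp. KOM, a rhomboid-like protease gene of pollen wall formation, was 1354 bp from a peak scoring 677 and 1150, with AT1G77855 at 2177 bp.

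The remaining 4 of the 10 stood between genes with no name in the reference table. A peak between AT1G28080 at 2246 bp and AT1G28090 at 1926 bp scored 811 and 1378. One between AT3G44265 at 11220 bp and AT3G44280 at 1049 bp scored 609 and 980. AT2G01240 at 2084 bp and AT2G01250 at 1362 bp flanked a peak with scores of 508 and 876. The exception in order of scores was the peak between AT2G16005 at 5028 bp and AT2G16015 at 5108 bp, with 841 in replicate 1 and 749 in replicate 2. It touched the pseudogene AT2G16010.

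**Figure D4:**
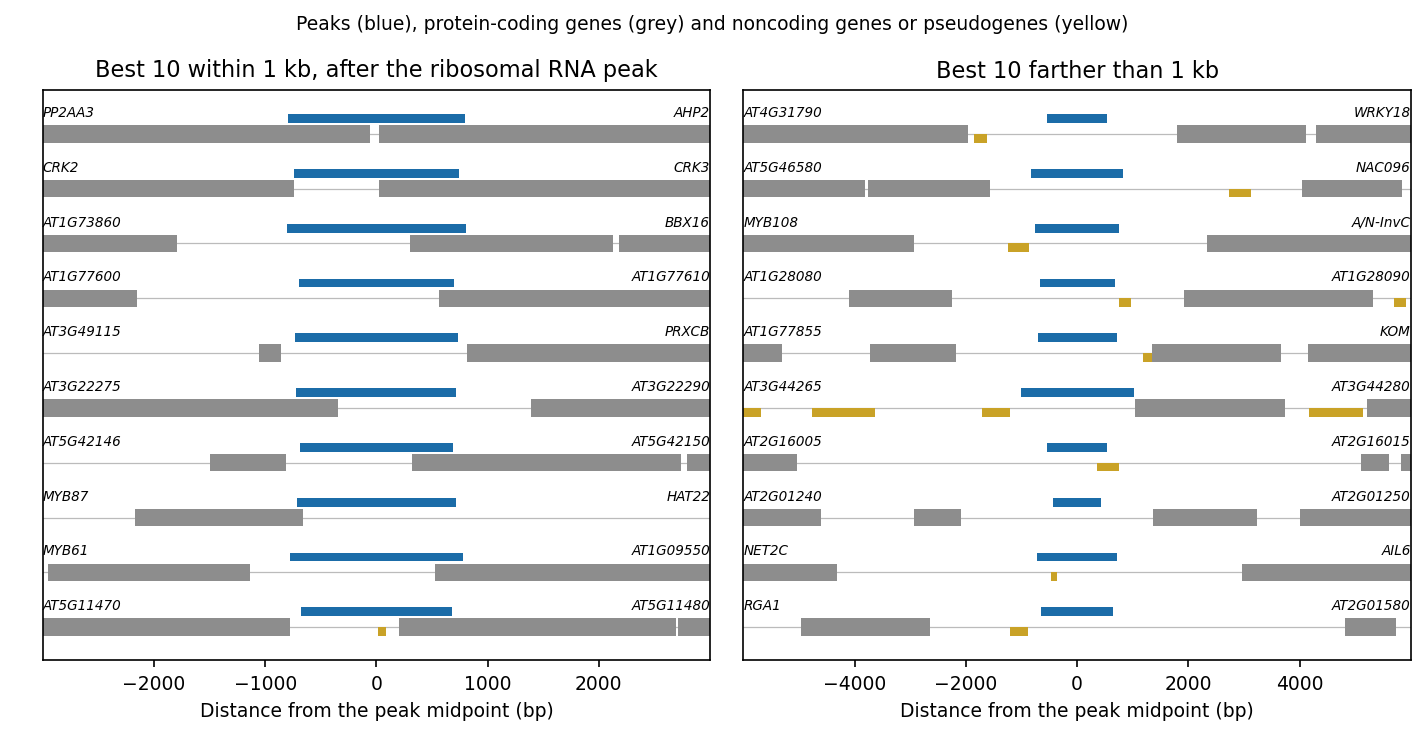
Positions of 10 high-ranked peaks within 1 kb of a gene (left, after the ribosomal RNA peak) and the 10 highest-ranked peaks farther away (right), each row centred on the peak midpoint, with distance in bp on the horizontal axis and the flanking protein-coding genes named. Blue bars are peaks, grey boxes protein-coding genes and yellow boxes noncoding genes or pseudogenes; on the right no peak reaches a grey box.

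At the boundary of 1 kb, the 3 peaks just inside and the 3 just outside are too few to compare by score. Those just inside were 954 bp from AT4G11900 (scores 39.8 and 98.1), 994 bp from AT2G16730 (88.3 and 167) and 995 bp from AT1G77880 (26.9 and 69.4). Those just outside were 1011 bp from AT2G15029 (27.8 and 25.3), 1017 bp from PETC, which encodes the Rieske protein of photosynthesis (107 and 201), and 1038 bp from AT3G04480 (209 and 503).

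Of listed genes in pathways linked to FHY3, a small share stood beside these peaks, though larger than the share of all genes. Of 137 genes in 9 lists, 5 flanked a peak within 1 kb (3.65%), against 0.711% of all protein-coding genes. At any distance the same 5 did, against 1.59% of all genes. The lists were drawn up with earlier results of these data known, so this share is no independent evidence. They were SEP2 and SHP2 of 35 genes of floral organs and meristems, AHG3 (PP2CA in the reference table) of 10 genes of abscisic acid signalling, BBX16 of 8 B-box genes and CHLH (GUN5) of 11 chlorophyll genes. SEP2, which acts in all floral whorls, was 551 bp from a peak scoring 349 and 546. AHG3, a phosphatase that restrains abscisic acid responses, was 314 bp from one scoring 394 and 537. CHLH, a magnesium chelatase subunit, was 52 bp from a peak scoring 75.9 and 144, the lowest of the 5 in each list. None of 29 light signalling, 14 FHY3/FAR1 family, 22 clock, 7 phosphate and 3 isoamylase genes flanked a peak of this kind. The lists are not complete: AIL6 of floral organs and ABF4 and PYL5 of abscisic acid signalling were not in them and flanked far peaks.

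Annotated noncoding genes and pseudogenes lay under some of the peaks. Within 1 kb of a gene, 7 of 138 midpoints (5.07%, interval 2.48 to 10.1%) lay in such an annotation, against 6.17% of the bases there. Farther away 17 of 93 did (18.3%, interval 11.7 to 27.3%), against 22.1% of the bases. Both intervals include the share of bases. For pseudogenes alone it was 0 of 138, with an interval of up to 2.71%, against 2.53% of bases, and 14 of 93 (15.1%, interval 9.18 to 23.7%), against 18.3% of bases. At the start of chromosome 2 lay 6 of these 14. Without its first 100 kb, 8 of 82 far midpoints lay in a pseudogene (9.76%, interval 5.03 to 18.09%), against 18.13% of bases, just above the interval. In any such annotation lay 11 of 82 (13.4%, interval 7.66 to 22.4%), against 21.9% of bases, which is inside the interval. Leaving out that stretch was decided after the data were seen. Of the long and other noncoding RNA genes, 5 of 138 and 3 of 93 midpoints lay in one (3.62% and 3.23%), against 3.37% and 3.78% of bases.

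Individual noncoding genes lay under peaks with high scores. MIR399c, which encodes a miRNA of the phosphate starvation response, held the midpoint of a peak at chr5:24961862-24963286 with scores of 293 in replicate 1 and 711 in replicate 2, and was named after its values were seen. The nearest protein-coding genes were the zinc transporter gene ZIP12 at 710 bp and the MADS-box gene AGL42 at 2072 bp. Pseudogenes with high scores at their midpoints were AT2G23720 (422 and 773) and AT1G70010 (356 and 913), and long or other noncoding RNA genes AT1G07973 (404 and 658), AT1G49952 (343 and 796) and AT3G01405 (331 and 562), also named after their values were seen.

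At the start of chromosome 2, peaks between genes crowded together. The nucleolus organizer, an array of ribosomal RNA genes, lies at that end of the chromosome. The first 100 kb held 12 of the 231 peaks, 11 of them farther than 1 kb from a gene, and 1 of the 12 scored at least 100 in both lists. That one, at chr2:1004-10616, overlapped the ribosomal RNA genes AT2G01010 and AT2G01020, was 9613 bp wide and stood at the score ceiling of 3100 in both lists. The other 11 scored from 26.5 to 159 in replicate 1 (median 54.0) and from 24.96 to 172 in replicate 2 (median 47.9), with replicate 2 higher at 5 of them. Of the 11, 9 lay in a single space of 40520 bp between AT2G01023 and AT2G01035, and 6 had their midpoint in the pseudogenes AT2G01028, AT2G01029, AT2G01034 and AT2G01037.

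This stretch set the density of its arm. The arm of chromosome 2 left of the block had 13.3 peaks per Mb between genes (interval 7.45 to 21.95), and without its first 100 kb 3 peaks in 1.06 Mb, or 2.84 per Mb (0.586 to 8.30). Across the other 9 arms the density ran from 3.55 per Mb on the right arm of chromosome 5 (2.10 to 5.61) to 8.62 on the left arm of chromosome 3 (6.004 to 11.99). That pair of intervals does not overlap, while all other pairs among those 9 arms do. The pair is the lowest and highest of the 9, picked after the densities were seen. No allowance was made for the number of pairs, so this is a description only. The left arm of chromosome 3 held 25 peaks within 1 kb and 10 farther away, and the right arm of chromosome 5 held 8 and 10. Median scores in these arms were 115 and 199 on chromosome 3, and 120.1 and 177 on chromosome 5.

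**Figure D5:**
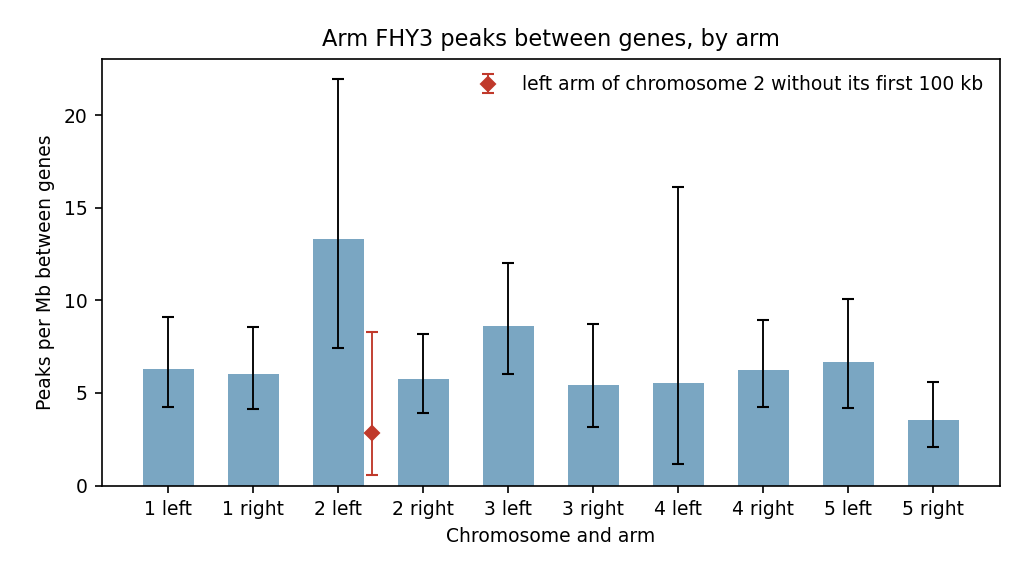
FHY3 peaks per Mb of sequence between genes (vertical axis) in each chromosome arm, left and right of the left-out block (horizontal axis), with exact 95% Poisson intervals. The diamond is the left arm of chromosome 2 without its first 100 kb, at 2.84 per Mb in place of 13.3.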

How the data were processed

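For each ChIP sample the authors deposited a list of peak positions with a score on a scale that is not stated. CASAVA 1.8, Bowtie2 2.2.3 and MACS 1.4.2 are named in the submitters' processing notes. Not given in the sources used here are the settings, the control and the build. Genes came from a TAIR10.1 table of 27444 nuclear protein-coding genes and 10455 noncoding genes and pseudogenes, without strand or sequence. Placing peaks beside genes assumes that the lists share that frame, and positions printed are those of the lists. Starts were converted to positions counted from 1. A region carries the best score of each list. Density divides peaks by arm bases of the same class. The overlap and distance steps were tested on simulated data. Named were genes at the 15 best-ranked peaks within 1 kb, the 10 best farther away, list members, 3 peaks on each side of 1 kb and the 5 highest and lowest score ratios; others are marked as named after their values were seen. Members and lists were chosen with earlier results of these data known. Alternatives varied overlap, score, gene set, block, distance and replicate. Python 3.11.15, numpy 2.4.6, pandas 2.3.3, scipy 1.17.1 and matplotlib 3.10.9 were used.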

Additional observations from a re-analysis of the deposited data

How the results depend on the processing

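Of 109 comparisons of a result with an alternative, 87 stayed within a limit set for them and 22 passed it. The chromosome 2 alternative was chosen after the data were seen. Counts had a fixed fold limit, and shares and densities had their main intervals. Medians had the standard deviation between the replicates' medians, which for scores holds the offset of lists on an unknown scale. These limits are wide: 337 peaks between genes with replicate 2 alone, against 231, stayed within them. The 87 is therefore no measure of stability. With genes of any type, 52 peaks lay farther than 1 kb and 74.9% within it. A split at 500 bp gave 41.1% near, and one at 2 kb gave 81.0% near and 44 peaks farther, 34.1% of which scored at least 100 in both lists. With scores of at least 50 in both lists, median scores were 172 and 343 near and 168 and 367 farther in replicates 1 and 2, and 68.6% and 70.8% reached 100, which the threshold itself raises. With each replicate alone, including its unshared peaks, 138 to 140 peaks were farther, median width was 883.5 to 997 bp, and 36.3 to 50.3% near and 34.1 to 45.7% farther scored at least 100 in that list; median scores were 64.7 near and 51.9 farther for replicate 1, and 101 and 69.7 for replicate 2. Requiring 50% reciprocal overlap, midpoints within 200 bp or blocks widened by 1 Mb moved none of the 11 results run past these limits. Gene orientation, the nearest 5′ end and binding site searches were not run, since strand and sequence were not in the sources used. No paired analysis was possible because both ChIP replicates belong to 1 group with no other to pair with. Since depth is unknown, a missing peak cannot be read as absence of binding.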

Other observations

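Several regulators of development and hormone signalling stood beside peaks between genes; they were picked after their values were seen, so they are a description only. For floral and leaf development, the peak 4447 bp from BOP2, a gene of organ boundaries, scored 143 in replicate 1 and 468 in replicate 2. TCP15, a growth regulator, was 3377 bp from a peak scoring 137 and 486, and ERL1, a receptor kinase gene of stomatal patterning, was 2240 bp from one scoring 221 and 571. KAN2, an organ polarity gene, was 3468 bp from a peak with 85.8 and 207. DRNL, which acts in the start of organs, was 58 bp from a peak with 73.5 and 93.6.

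Among hormone genes, MYC2, a central transcription factor of jasmonate signalling, was 2569 bp from a peak scoring 239.7 and 558, and JAR1, which makes the active jasmonate conjugate, was 1269 bp from one scoring 51.6 and 134. ABF4, a transcription factor of abscisic acid responses, was 1500 bp from a peak with 115 and 278, with FUT11 at 1513 bp. The abscisic acid receptor gene PYL5 was 1073 bp from one with 38.2 and 73.3, with AT5G05430 at 1203 bp. ACS5, an enzyme gene of ethylene synthesis, was 3075 bp from a peak with 269.99 and 324, with CGR3 closer at 1778 bp. GA20OX3, of gibberellin synthesis, was 2984 bp from a peak with 37.98 and 145.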
